A study of Mus musculus with 6 samples.

Results

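The genes described here encode the proximal signalling machinery of the T cell receptor, the proteins that carry the signal from an engaged receptor to the first branch points inside the cell. They were chosen by gene symbol from a list of 37 names (4 receptor chains, 5 kinases, 7 adaptors or scaffolds, 7 effectors or exchange factors, 10 inhibitors, the receptor phosphatase gene Ptprc and 3 coreceptor or costimulatory genes). All 37 were found, each in 1 row of the 22298 genes in the tables, and all 37 passed the filter on low counts, so no member is missing from the tests. Transcripts were measured by RNA sequencing in C57BL/6 mice of 2 genotypes with 3 libraries each. Controls were Toxf/f, with both Tox alleles flanked by recombination sites and no Cre. The compared group was Toxf/fCd4Cre, which carries the same alleles plus Cre recombinase under Cd4 regulatory sequences, active from the stages at which thymocytes turn on Cd4. Mice were untreated, and in each genotype they were aged 4 weeks for replicate 1 but 3 weeks for replicates 2 and 3. No group carried Cre without the altered Tox alleles, so effects of Cre and of Tox loss cannot be told apart. The labels do not say whether a replicate is 1 mouse or separate mice, so p-values measure only the spread between these libraries.

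When a T cell receptor binds its ligand, the kinase Lck phosphorylates tyrosine motifs on the CD3 and zeta chains, Zap70 docks there, and Zap70 phosphorylates the adaptors Lat and SLP-76 (the product of Lcp2). These scaffolds gather phospholipase C gamma 1, Vav1 and the Tec-family kinases, which start the calcium, Ras and NF-kB branches. Phosphatases, ubiquitin ligases and diacylglycerol kinases oppose each step, and in the thymus the strength of the summed signal sets which cells survive selection. The comparison asks whether the transcripts of this machinery differ between the genotypes.

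The 6 libraries held 14550593 to 16099023 estimated counts, of which the 37 genes took 1.213% to 1.263%. Tox itself, the targeted gene, had control values of 109, 99.2 and 103 CPM (counts scaled to library size by TMM), against 12.5, 15.1 and 10.2 CPM with Cd4Cre, a fold of 0.122. Its counts cover the whole gene, exons outside the deleted part included. The sample titles call the cells double-negative thymocytes and the protocol names sorted DN2 cells, but Kit, a defining DN2 gene, stood at 3.53 to 4.49 FPKM (fragments scaled for transcript length and library size, as deposited) and Cd8a, a coreceptor gene of later thymocytes, at 546 to 570 FPKM in the controls. Of the other DN2 markers, Cd44 stood at 9.67 to 15.2, Il2ra at 21.5 to 24.6 and Cd24a, which later thymocytes also carry, at 145 to 164 FPKM. The libraries are bulk samples, so fewer cells of a type and less RNA per cell cannot be told apart in any value below.

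RefSeq promoter windows (GRCm38.p6, 250 bases before to 50 after a transcript start) were found for 29 of the 37 genes, 42 windows in all. Those of the receptor chains and of Lck are shown because these genes sit at the entry point of the machinery. Cd3g and Cd3d lie head to head on chromosome 9, with 854 bases between their windows, and the Cd3e window follows 27726 bases further on. Lck has 2 windows, 14969 bases apart, which the gene-level counts cannot separate. Capitals mark every match, on either strand, to 4 motifs. They are TATAAA of the core promoter box of that name, the GC box GGGCGG, the Runx core with letters TGTGGT, and the core of TCF and LEF sites with letters ACAAAG. None of the 4 contains another.
Cd3g (chr9:44980382-44980681, minus strand): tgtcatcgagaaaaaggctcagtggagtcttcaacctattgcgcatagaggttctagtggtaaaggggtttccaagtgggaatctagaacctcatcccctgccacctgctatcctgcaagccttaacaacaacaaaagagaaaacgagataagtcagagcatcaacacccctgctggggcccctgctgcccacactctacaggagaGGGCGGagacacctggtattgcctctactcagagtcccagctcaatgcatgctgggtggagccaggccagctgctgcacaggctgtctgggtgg
Cd3d (chr9:44981536-44981835, plus strand): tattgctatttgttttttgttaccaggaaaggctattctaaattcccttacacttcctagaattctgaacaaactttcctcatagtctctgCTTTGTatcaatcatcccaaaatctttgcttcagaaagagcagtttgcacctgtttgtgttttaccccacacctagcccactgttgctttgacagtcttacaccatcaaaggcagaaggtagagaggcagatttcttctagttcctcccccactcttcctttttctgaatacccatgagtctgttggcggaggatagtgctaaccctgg
Cd3e (chr9:45009562-45009861, minus strand): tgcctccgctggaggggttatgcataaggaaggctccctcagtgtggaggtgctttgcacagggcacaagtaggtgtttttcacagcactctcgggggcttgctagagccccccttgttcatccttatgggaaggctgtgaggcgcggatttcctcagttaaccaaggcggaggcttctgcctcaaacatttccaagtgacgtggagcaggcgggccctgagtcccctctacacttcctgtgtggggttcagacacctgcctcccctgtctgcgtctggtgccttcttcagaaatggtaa
Cd247 (chr1:165788431-165788730, plus strand): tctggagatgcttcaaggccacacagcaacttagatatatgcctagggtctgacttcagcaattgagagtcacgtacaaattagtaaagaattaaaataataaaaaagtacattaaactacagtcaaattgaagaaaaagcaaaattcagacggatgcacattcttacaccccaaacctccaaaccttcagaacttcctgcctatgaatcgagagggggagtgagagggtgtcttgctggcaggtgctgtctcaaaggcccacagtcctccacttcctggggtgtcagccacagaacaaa
Lck, upstream window (chr4:129573592-129573891, minus strand): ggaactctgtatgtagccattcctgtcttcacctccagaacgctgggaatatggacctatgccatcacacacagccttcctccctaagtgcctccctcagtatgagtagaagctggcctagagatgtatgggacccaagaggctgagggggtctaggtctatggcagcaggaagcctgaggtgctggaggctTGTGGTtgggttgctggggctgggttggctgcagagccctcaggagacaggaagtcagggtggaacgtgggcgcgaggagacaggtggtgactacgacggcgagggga
Lck, downstream window (chr4:129558323-129558622, minus strand): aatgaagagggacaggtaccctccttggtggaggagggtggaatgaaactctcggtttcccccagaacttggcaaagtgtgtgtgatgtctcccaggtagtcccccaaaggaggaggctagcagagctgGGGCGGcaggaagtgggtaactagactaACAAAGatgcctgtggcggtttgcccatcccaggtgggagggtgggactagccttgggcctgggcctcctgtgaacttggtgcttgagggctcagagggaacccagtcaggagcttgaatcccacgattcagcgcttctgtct
Cd3g held 1 GC box, Cd3d 1 TCF and LEF core, and the Cd3e and Cd247 windows none of the 4 motifs. The upstream Lck window held 1 Runx core and the downstream one a GC box and a TCF and LEF core. Over the 42 windows of the members, 3 (7.14%) held TATAAA, against 13.6% of all 32851 RefSeq windows of this length. GGGCGG was in 45.2% against 35.7%, TGTGGT in 16.7% against 16.8% and ACAAAG in 21.4% against 18.7%. A match is a description of letters in a window and was not tied to any factor.

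Across the machinery, transcript levels differed little between the genotypes. Cd2, an adhesion receptor gene of T and NK cells, fell, and the other 36 genes did not pass the threshold (edgeR quasi-likelihood, Benjamini-Hochberg adjusted p of 0.05 over all 13934 genes tested). That is 2.7% of the members, against a background of 4.11% of all genes tested, 1.15% higher and 2.96% lower. None of the members passed as higher in edgeR, and DESeq2 called 0 higher (background 1.39%) and 2 lower, Cd2 and Txk (3.44%). At an unadjusted p under 0.05 in edgeR 5 members were higher and 5 lower, 27.0% of the members against 16.3% of all genes (7.33% higher and 9.0% lower). The median log2 fold change (Cd4Cre minus control) was 0.035 over the members and 0.010 over all genes tested, with 21 members above 0 and 16 below, between -0.34 and 0.23. The 95% interval of the fold change, not adjusted for the number of genes, lay within 1.5-fold in either direction for all 37 genes, and within 1.2-fold for 19 of them, among them Cd3g, Cd247, Lat, Lcp2, Grap2, Plcg1, Vav1 and Rasgrp1. In value, 4 genes differed by more than 1.2-fold, all lower (Cd2, Malt1, Txk and Ptprc). That is 10.8% of the members, against 23.0% of all genes tested and 5.59% of the 4723 tested genes at least as abundant as the lowest member, Ptpn2 (50.3 CPM). Of those 4723 genes 2.86% passed the test.

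**Figure D1:**
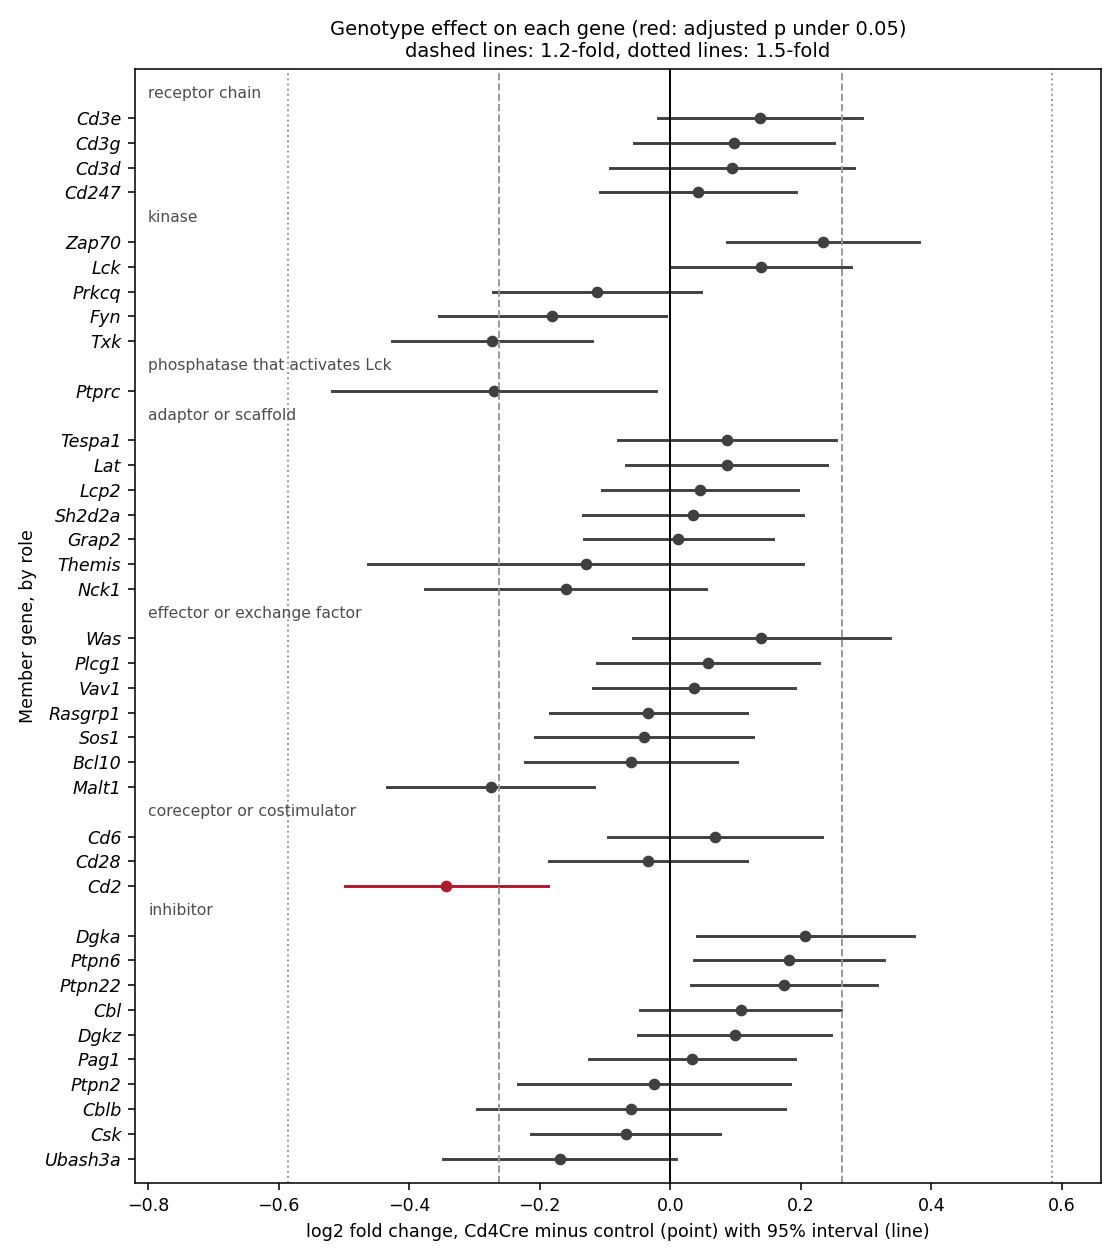
Log2 fold change (Cd4Cre minus control, point) and its 95% interval (line) for each of the 37 genes, grouped by role, with dashed lines at 1.2-fold and dotted lines at 1.5-fold. Only Cd2 (red) passed adjusted p 0.05, all intervals lie inside the dotted lines, and the 4 receptor chains lie to the right of 0 with intervals that include it.

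None of the 4 receptor chain genes passed the test. Cd3e (ENSMUSG00000032093), a chain that pairs with both CD3 delta and CD3 gamma, measured 258, 252 and 260 CPM in controls against 273, 304 and 271 CPM in Cd4Cre. Every Cd4Cre value lay above the controls, but the fold of 1.10 (95% interval 0.988 to 1.23) did not pass (adjusted p = 0.376). Cd3g (ENSMUSG00000002033) was 646, 654 and 646 against 679, 662 and 741 CPM, again without overlap, with a fold of 1.07 (0.963 to 1.19, adjusted p = 0.535). The partner chain gene Cd3d (ENSMUSG00000032094) was 248, 231 and 250 against 263, 230 and 285 CPM, and its groups overlapped. Cd247 (ENSMUSG00000005763), which encodes the zeta chain with the largest number of tyrosine motifs per chain, was 589, 649 and 603 against 620, 644 and 632 CPM. Here the groups overlapped widely and the fold was 1.03 (0.928 to 1.14, adjusted p = 0.811). Within a library, Cd3g transcripts per length exceeded those of Cd247 by 1.65 to 1.79 times in the controls and 1.68 to 1.90 times in Cd4Cre. The Cd3d to Cd3e ratio of FPKM was 0.828 to 0.870 in the controls and 0.687 to 0.949 in Cd4Cre, so the ranges overlapped and the Cd4Cre libraries were the more spread.

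Among the kinases, values lay on both sides of the controls and none passed. Lck (ENSMUSG00000000409), the Src-family kinase that phosphorylates the receptor chains, measured 1405, 1440 and 1416 CPM in controls against 1556, 1587 and 1549 CPM in Cd4Cre. The groups did not overlap, and the fold was 1.10 (1.00 to 1.21, adjusted p = 0.304). Zap70 (ENSMUSG00000026117), the kinase that docks on the phosphorylated chains, was 116, 111 and 122 against 140, 136 and 135 CPM. All Cd4Cre values were above all controls, and the fold of 1.18 missed the threshold (log2 fold change 0.23, SE 0.07, 95% interval 0.09 to 0.38, adjusted p = 0.0887). Fyn, the second Src-family kinase of T cells, had the reverse order, 172, 162 and 161 against 145, 159 and 133 CPM, with an adjusted p of 0.287. Txk (ENSMUSG00000054892), a Tec-family kinase also called Rlk, was 76.3, 70.9 and 74.6 against 60.0, 59.7 and 63.9 CPM. Its groups did not overlap, and at a fold of 0.828 (0.744 to 0.920) it lay just outside the threshold (adjusted p = 0.0535). Prkcq, the protein kinase C theta gene that acts downstream of diacylglycerol, was 205 ± 11.8 and 190 ± 8.25 CPM (mean ± SD, n = 3).

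None of the 7 genes of adaptors and scaffolds passed the test, and Themis and Nck1 among them, whose intervals reach past 1.2-fold, are described with Ptprc. Lat, the membrane scaffold phosphorylated by Zap70, was 390 ± 2.11 and 414 ± 25.9 CPM (n = 3), with a Cd4Cre spread far above that of the controls. Lcp2 was 319 ± 7.60 and 329 ± 15.4 CPM, and Grap2, which encodes the Gads protein that links SLP-76 to Lat, was 464 ± 3.70 and 468 ± 17.1 CPM. Sh2d2a, a T cell adaptor gene that binds Lck, was 170 ± 8.47 and 174 ± 12.8 CPM. Tespa1, a thymocyte gene needed for positive selection, was 152 ± 6.43 and 161 ± 12.1 CPM. For these 5 genes the interval lay within 1.2-fold. Lcp2 shares 282 exonic bases with a gene on the opposite strand in GENCODE M21, and 9 members in all share exonic bases with another annotated gene, 8 of them across strands. For Cd247 the shared stretch with Pou2f1 is 2918 bases. Strand use in counting is not given in the sources used here, so these values may hold reads of the partner.

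Effector and exchange factor genes showed 1 value near the threshold. Malt1 (ENSMUSG00000032688), the paracaspase of the complex that relays the signal to NF-kB, had 54.6, 57.7 and 56.0 CPM in controls against 44.5, 46.2 and 48.4 CPM in Cd4Cre. The groups did not overlap, and the fold was 0.826 (0.740 to 0.923, log2 fold change -0.28, SE 0.07, adjusted p = 0.0604). Its partner in that complex, Bcl10, was 72.4 ± 1.65 and 69.4 ± 4.91 CPM (n = 3) with overlapping groups. Plcg1, which cleaves a membrane lipid into the second messengers of the calcium and Ras branches, was 230 ± 8.84 and 239 ± 19.9 CPM. Rasgrp1, the diacylglycerol-driven activator of Ras in thymocytes, was 640 ± 20.3 and 626 ± 27.4 CPM, and Sos1, a second Ras activator, 59.5 ± 0.099 and 57.9 ± 4.54 CPM. Vav1 and Was, which act on the actin skeleton, were 228 ± 13.8 and 233 ± 3.12 CPM, and 110 ± 3.63 and 121 ± 15.4 CPM. Values of Plcg1, Rasgrp1, Sos1, Vav1 and Was overlapped between the genotypes.

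Of the 10 inhibitor genes none passed, and 6 had a value above the control. Ptpn6, which encodes the phosphatase SHP-1, had 194, 190 and 199 CPM in controls against 219, 228 and 214 CPM in Cd4Cre. Ptpn22, a phosphatase gene whose product removes activating phosphates from Lck and Zap70, was 94.9, 97.4 and 99.4 against 113, 106 and 110 CPM. Dgka, which encodes a kinase that consumes diacylglycerol, was 376, 344 and 323 against 414, 404 and 386 CPM. In these 3 genes every Cd4Cre value lay above every control, and the folds were 1.13, 1.13 and 1.15 with adjusted p of 0.188, 0.201 and 0.189. The related kinase gene Dgkz also showed no overlap, at 492 ± 20.5 and 526 ± 10.8 CPM (n = 3, adjusted p = 0.512). Csk, the kinase that places the inhibitory phosphate on Lck, lay lower without overlap, at 214 ± 2.98 and 204 ± 7.59 CPM, while its membrane anchor gene Pag1 was 297 ± 6.47 and 304 ± 19.8 CPM. The ubiquitin ligase genes Cbl and Cblb were 1227 ± 62.0 and 1323 ± 51.8 CPM, and 58.7 ± 1.87 and 56.3 ± 9.56 CPM. Ubash3a, which encodes a suppressor of receptor signalling, was 104 ± 7.06 and 92.2 ± 7.65 CPM, and the phosphatase gene Ptpn2 was 50.7 ± 1.72 and 49.9 ± 6.54 CPM. The Cbl, Cblb, Pag1, Ubash3a and Ptpn2 groups overlapped.

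Counting the whole machinery, 9 genes lay higher in all Cd4Cre libraries than in all controls (24.3% of the members, against 11.3% of all genes tested). They were Cd3e, Cd3g, Lck, Zap70, Lat, Ptpn22, Ptpn6, Dgka and Dgkz. Another 5 lay lower without overlap (13.5%, against 10.6%), namely Fyn, Txk, Csk, Malt1 and Cd2, so that 37.8% of the members did not overlap in either direction, against 22.0% of all genes. Among the 4723 tested genes at least as abundant as Ptpn2 the same shares were 12.9% and 6.94%. Activating genes and inhibitors stood on both sides, and with 1 exception their differences did not pass the test.

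Cd2 (ENSMUSG00000027863) was the exception. Its control values were 201, 196 and 179 CPM, and those of Cd4Cre were 151, 147 and 155 CPM. The Cd4Cre values lay close together and below each control. The mean fell from 192 ± 11.5 to 151 ± 3.87 CPM (n = 3), a log2 fold change of -0.34 (SE 0.07, fold 0.788, 95% interval 0.708 to 0.878, adjusted p = 0.0179), and the deposited FPKM values were 176, 171 and 154 against 132, 127 and 133. An exact permutation test of 3 against 3 libraries cannot go below a two-sided p of 0.1. The call was lost without control replicate 1 (adjusted p = 0.129), control replicate 2 (0.0985) or Cd4Cre replicate 1 (0.0898), where the log2 fold changes were -0.31, -0.33 and -0.34, and in the 3-week libraries alone (0.426), where the log2 fold change was -0.31. The 4-week libraries, 1 per genotype, allow no test. Mature single-positive T cells also carry Cd2, and of 11 of their markers 8 were lower in the same libraries, against a background of 2.96%. The sums were 1189 to 1261 CPM in controls and 658 to 725 CPM in Cd4Cre, with no marker at 0. That list was chosen with earlier results of these data known, so its count is a description and no independent evidence. The part of mature T cells in the Cd2 value was not tested. Cd28, the costimulatory receptor gene, was 240 ± 7.29 and 235 ± 11.1 CPM, and Cd6, an adhesion and scaffold receptor gene, 210 ± 6.04 and 220 ± 16.2 CPM, both with overlapping groups.

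**Figure D2:**
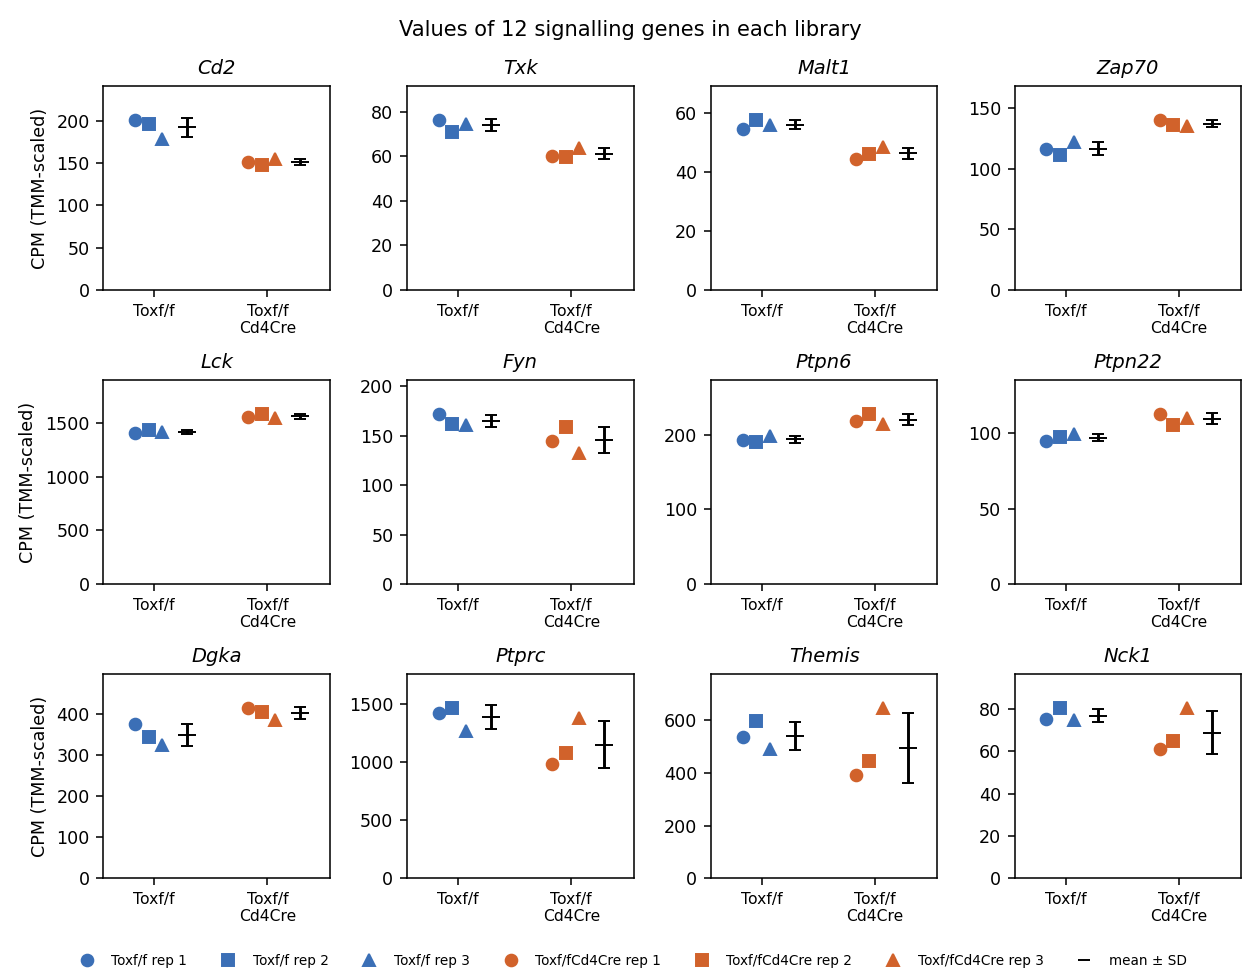
TMM-scaled CPM of 12 genes in each library (one symbol per replicate number, blue for Toxf/f and orange for Toxf/fCd4Cre), with the group mean ± SD in black and axes that start at 0. Cd2 lay at 147 to 155 CPM in Cd4Cre and 179 to 201 CPM in the controls, and in Ptprc, Themis and Nck1 the Cd4Cre replicate 3 stands above the other Cd4Cre libraries.

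Ptprc, Themis and Nck1 were picked after their values were seen, as genes in which Cd4Cre replicate 3 stood above its group. That library also stood over 1.2-fold above the mean of the other Cd4Cre libraries in Ptpn2, and over 1.2-fold below it in Cblb and Was. Ptprc, which encodes CD45, the phosphatase that keeps Lck ready by removing its inhibitory phosphate, had 1424, 1468 and 1271 CPM in controls against 988, 1083 and 1381 CPM in Cd4Cre. Replicates 1 and 2 of Cd4Cre lay below all controls, and replicate 3 lay within their range. Themis, a thymocyte adaptor gene needed for positive selection, was 538, 598 and 490 against 394, 445 and 648 CPM, so that replicate 3 was the highest of all 6 libraries. Nck1, an adaptor gene that links the receptor to actin, was 75.4, 80.2 and 74.9 against 61.1, 64.9 and 80.5 CPM, with the same order. With all libraries these genes did not pass (adjusted p = 0.260, 0.727 and 0.467), with folds for Themis of 0.914 (0.725 to 1.15) and for Nck1 of 0.895 (0.771 to 1.04).

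Without Cd4Cre replicate 3, 7 of the 37 genes passed, 18.9% against 8.97% of all genes in that fit. Cd2, Txk, Malt1, Ptprc, Themis and Nck1 were lower (background 5.61%), with log2 fold changes of -0.36, -0.30, -0.31, -0.42, -0.37 and -0.29, and Zap70 was higher at 0.25 (background 3.36%). Ptprc, Themis and Nck1 were picked for a high value in the library left out, so their passing without it is no independent evidence. The share among equally abundant genes is not given here for that fit. Leaving out that library raised the number of genes called over the whole table from 572 to 1269. In the 3-week libraries alone, which include it, none of the members passed in either direction (background 1.08%), and the Themis value was 0.01. Cd4Cre replicate 3 differed by over 1.2-fold from the mean of the other libraries of its group in 6 members (Cblb, Nck1, Ptpn2, Ptprc, Themis and Was) and in 33.5% of all genes compared. Cd4Cre replicates 1 and 2 did so in 2 members each and in 20.9% and 30.1% of all genes, and in the controls no member did, against 17.3% to 20.4% of all genes. By the count of members in which a library lay farthest from the other libraries of its group, Cd4Cre replicate 2 led with 18 (48.6% of the members). Replicate 3 had 14 (37.8%) and replicate 1 had 5 (13.5%). Over all genes compared, replicate 3 led with 42.6%, against 35.7% for replicate 2 and 21.7% for replicate 1. A genotype by age term, with 2 residual degrees of freedom, was called for 0 of 13934 genes (122 at an unadjusted p under 0.05), among them 0 of the members at either level. The edgeR model gave Ptprc the smallest p of the members for that term (0.17).

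**Figure D3:**
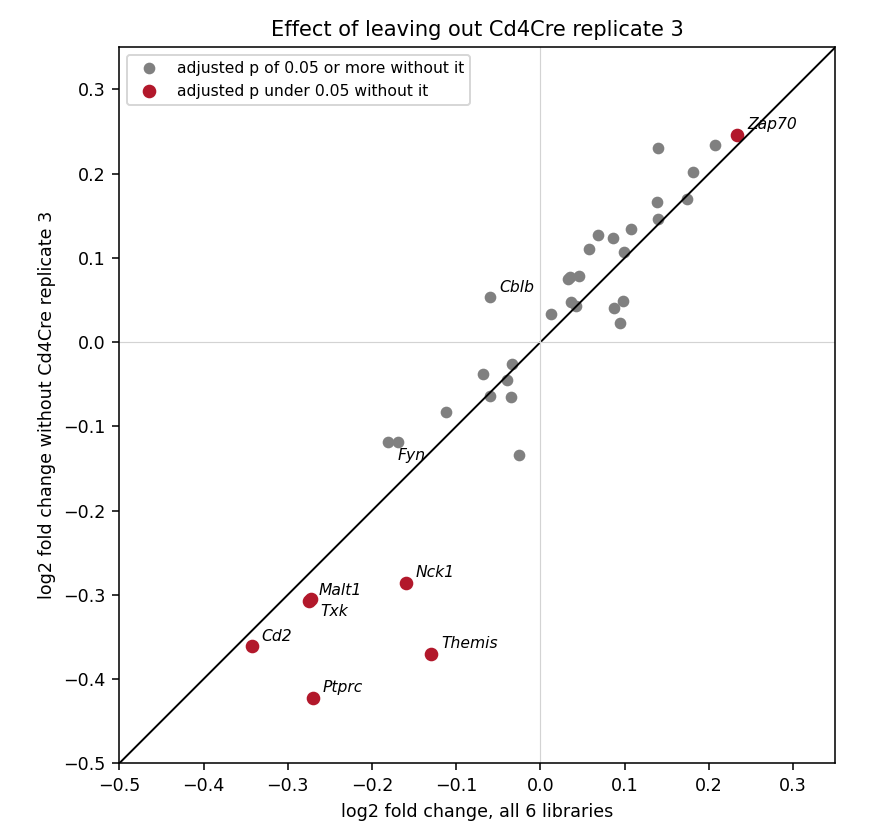
Log2 fold change of each of the 37 genes with all 6 libraries (x axis) and without Cd4Cre replicate 3 (y axis), with the line of equal values. The 7 genes in red had an adjusted p under 0.05 without that library, and Ptprc, Themis and Nck1 lie farthest below the line among them.

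The levels of the machinery, compared per length in FPKM, spanned 94.6-fold in the controls and kept much the same order in Cd4Cre. Lck was the most abundant (670 ± 7.67 FPKM in the controls and 736 ± 16.2 in Cd4Cre, n = 3), followed by Cd3g (651 ± 10.1 and 690 ± 32.8), Cd247 (377 ± 19.6 and 386 ± 6.92) and Lat (370 ± 3.82 and 387 ± 29.0). Cd247 and Lat had overlapping control ranges, whereas Lck, Cd3g and that pair were apart in the controls. At the low end stood Cblb (13.2 ± 0.800 FPKM in the controls), Malt1 (10.8 ± 0.295) and Sos1 (7.08 ± 0.0666), each apart from its neighbours. In all, 17 genes had a control mean over 100 FPKM and 3 under 20 FPKM, and the least abundant, Sos1, was at percentile 64.5 of all genes in the tables. Of the 36 neighbouring pairs in the control order, 21 had overlapping ranges, so the order among genes such as Cd3e, Cd2, Cd3d, Grap2, Themis and Csk is not resolved. No gene moved by more than 6 places between the genotypes and 14 kept their place. Between 675 and 25466 estimated counts per gene and library stand behind these values.

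**Figure D4:**
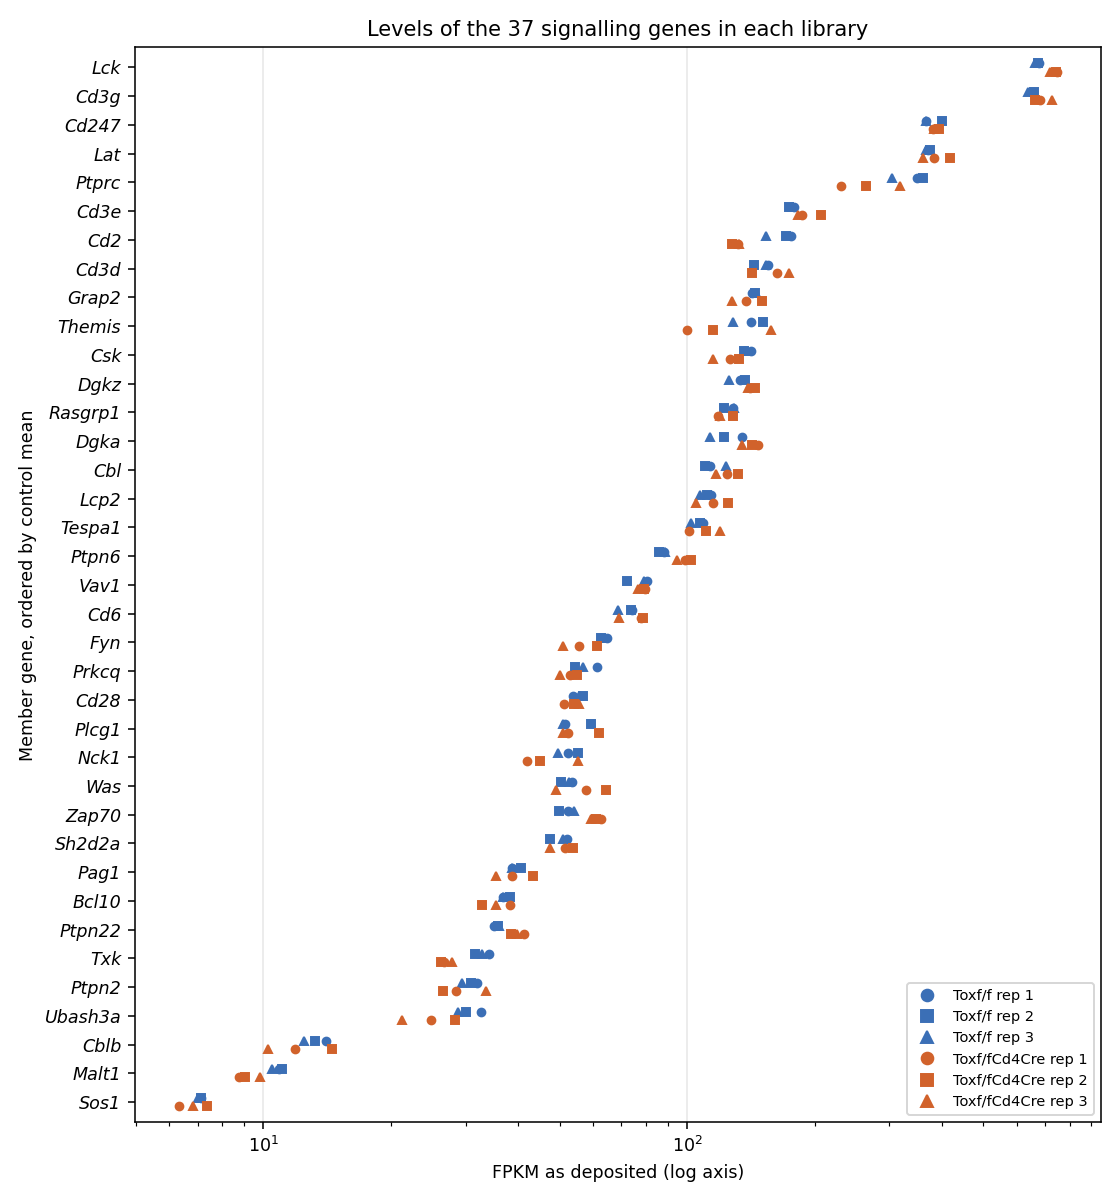
Deposited FPKM (log axis) of the 37 genes in each library, ordered by control mean, with Toxf/f in blue and Toxf/fCd4Cre in orange. Lck and Cd3g lie above 600 FPKM in each library and Cblb, Malt1 and Sos1 below 20 FPKM, while the colours lie close together in most rows.

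Other genes of the pathway, 110 chosen for their place in it, were counted in the same way. None passed as higher and 3 fell, 2.73% of the list against the same background of 4.11%. By DESeq2 the counts were also 0 higher and 3 lower (background 1.39% higher and 3.44% lower). At an unadjusted p under 0.05 in edgeR, 7 of the 110 were higher and 10 lower, against 7.33% and 9.0% of all genes tested. Inpp4b, a phosphatase gene that restrains phosphoinositide 3-kinase signalling, fell from 73.7 ± 8.53 to 25.5 ± 4.75 CPM (SD, n = 3), which is -1.53 on the log2 scale (SE 0.13, adjusted p = 3.49e-05). Rel, an NF-kB subunit gene induced in activated T cells, fell from 47.4 ± 1.74 to 29.6 ± 1.41 CPM (-0.68, SE 0.08, adjusted p = 0.000463). Cyld, which encodes a deubiquitinase that restrains NF-kB signalling, fell from 117 ± 5.33 to 94.6 ± 3.72 CPM (-0.31, SE 0.07, adjusted p = 0.0252). By branch, 1 of 45 genes next to the receptor, 0 of 18 of the calcium and NFAT branch, 0 of 23 of the Ras and MAP kinase branch, 1 of 12 of the NF-kB branch and 1 of 12 of the phosphoinositide 3-kinase branch passed. Over the 110 genes the median of log2 fold changes was 0.005.

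The KEGG annotation in the deposited tables gives a further view that was not drawn up for these genes. It lists 108 genes under T cell receptor signalling, 22 of the 37 members among them. Of its 98 tested genes 2 were higher and 3 lower, against the background of 4.11% of all genes tested (1.15% higher and 2.96% lower), and 93 were not past the threshold, with a median log2 fold change of 0.018. None of those 5 genes is a member. They were Cd40lg, a helper T cell ligand gene (8.96 ± 0.824 to 2.37 ± 0.377 CPM, n = 3), the inhibitory receptor gene Pdcd1, the MAP kinase genes Mapk11 and Mapk10 (1.04 ± 0.290 to 3.18 ± 0.811 CPM) and the costimulatory receptor gene Icos.

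Markers of other cells moved in the same libraries, besides those of mature T cells given with Cd2. These lists too were chosen with earlier results known, and over all genes tested 1.15% were higher and 2.96% lower. Of 10 gamma-delta T cell markers 7 were higher (sums of 631 to 643 CPM in controls and 934 to 984 CPM in Cd4Cre), and of 10 NK cell markers, 9 of them tested, 4 were higher (81.8 to 93.8 and 93.2 to 140 CPM). Of 10 B and plasma cell markers 5 were lower (687 to 713 and 616 to 710 CPM), of 12 macrophage and dendritic cell markers 1 (717 to 771 and 511 to 543 CPM). That 1 was Lyz2, which fell from 338 ± 31.0 to 134 ± 16.7 CPM (n = 3) and accounts for most of the drop in those sums. Of the 12, 5 lay lower (Lyz2 included) and 2 higher without overlap, against 10.6% and 11.3% of all genes tested. Thymic epithelium had 6 of 10 higher and 1 lower (1940 to 2098 and 2413 to 2670 CPM). Of 9 double-positive markers 1 was higher (9944 to 10250 and 10840 to 11450 CPM) and of 8 DN2 markers 1 lower (448 to 461 and 454 to 492 CPM). No marker of these lists was at 0 in any library. Many of the signalling genes, such as Cd2, Txk, Ptpn6, Ptprc and Was, are also used by NK, B or myeloid cells or by mature T cells, and the part of these cells in the values above was not tested.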

How the data were processed

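The authors deposited for each library an estimated count and an FPKM value per Ensembl gene, with symbols and KEGG annotation, per the file headers. Per the submitters' processing notes, fastp 0.18.0, HISAT2 and StringTie 1.3.1 were used. Not given in the sources used here are the counting program, genome build, annotation release and use of strand.

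The deposited estimated counts are not normalized per the file headers. They were rounded, filtered with filterByExpr (minimum count 10, minimum total 15), scaled by TMM and tested in R 4.3.3 with the edgeR 4.0.16 quasi-likelihood test, genotype only, two-sided, with Benjamini-Hochberg adjustment over 13934 genes. Standard errors and 95% intervals come from the quasi-likelihood F. FPKM values, scaled by the authors for length and depth, were used for levels and, with limma 3.58.1, as an alternative. DESeq2 1.42.0 was another. Library totals were 14550593 to 16099023 counts, and each member value rests on 675 to 25466 estimated counts.

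All members were accounted for. Those past the threshold, the CD3 chains, Lck, Zap70, and the most abundant and most changed genes are given per library, and of the other pathway genes those past the threshold. The members and lists were chosen with earlier results of these data known. Other genes named were chosen after their values were seen. GENCODE M21 served for exon overlaps, with all 37 members found by identifier.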

Additional observations from a re-analysis of the deposited data

How the results depend on the processing

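The 37 genes gave 0 higher and 1 lower call with all libraries. The lower count was 3 with a filter of at least 5 CPM (Cd2, Txk and Malt1). It was 2 with DESeq2 size factors and 2 with the DESeq2 test (Cd2 and Txk, with a background of 3.44% lower in that test). With the replicate block it was 0 (Cd2 at an adjusted p of 0.0607), and 0 in the 3-week libraries only (background 1.08% in either direction). Background shares by direction are not given here for the 5 CPM filter, the size factors or the block, so those counts cannot be read against one. Leaving out 1 library gave 0 to 6 lower and 0 to 1 higher members, 2 to 4 lower and 0 to 3 higher among the other pathway genes, and 298 to 1269 calls over all genes. The highest of these counts came without Cd4Cre replicate 3 (background 5.61% lower and 3.36% higher), and the cause was not tested. Background shares for the other fits with 1 library left out are not given here. Over all genes 572 passed, 440 with the replicate block and 151 in the 3-week libraries only. Of the 555 values of single members under the alternatives, 540 kept their side of the threshold, 10 newly passed it and 5, all of Cd2, no longer did, and no called gene changed direction. Same-numbered libraries did not deviate together (correlations of 0.085, -0.11 and -0.043 over 13934 genes), so the numbers were not taken to pair them. Fewer libraries or an added term leave fewer degrees of freedom. Each value rests on 675 or more estimated counts and each group on 3 libraries.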
